A study of Rattus norvegicus with 6 samples.

Results

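Transcripts of 10 genes that serve the housekeeping of resting astrocytes were compared between rats with subarachnoid hemorrhage (SAH, bleeding into the space around the brain) that received 6-gingerol and those that received vehicle. The genes were Aqp4, Slc1a2, Slc1a3, Kcnj10, Glul, Gja1, Gjb6, Aldoc, Slc4a4 and Aldh1l1. Each was found by its symbol as 1 gene model among the 22396 of the deposited count table, and all 10 passed the expression filter with 17096 genes. SAH was made in adult male Sprague-Dawley rats by injecting their own femoral artery blood into the cisterna magna, and PBS (phosphate buffered saline, the vehicle) or 6-gingerol, a compound of ginger, was given into the peritoneum 1 h later. Bulk RNA of the basal temporal lobe was sequenced at 24 h post-SAH from 3 rats given 6-gingerol at 10 mg/kg (SAH + 6-gingerol) and from 3 given PBS (SAH + PBS), as 1 library per rat. All 6 rats carried SAH, and no sham library was analysed here, so the level before bleeding is not known.

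Astrocytes clear what neurons release. The glutamate transporters GLT-1 (Slc1a2) and GLAST (Slc1a3) take up synaptic glutamate, glutamine synthetase (Glul) turns it into glutamine, and the inward rectifier Kir4.1 (Kcnj10) carries potassium away from active synapses. The water channel aquaporin-4 (Aqp4) sits on the endfeet that wrap blood vessels, connexin 43 (Gja1) and connexin 30 (Gjb6) join astrocytes into a network, and the cotransporter NBCe1 (Slc4a4) moves sodium with bicarbonate. Aldolase C (Aldoc) is the brain form of a glycolytic enzyme and Aldh1l1 is a folate enzyme, and both are used as markers of astrocytes. Loss of several of these functions is known to accompany edema and excitotoxicity after brain injury.

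None of the 10 genes passed the correction over all genes, and in none of them did the 3 SAH + 6-gingerol rats stand clear of the 3 SAH + PBS rats. Of the 10, 9 had a positive log2 fold change (SAH + 6-gingerol over SAH + PBS) and 1, Glul, a negative one, where 46.9% of all tested genes were positive. The median log2 fold change was 0.34 for the 10 genes and -0.03 for all tested genes. Without SAH + PBS replicate 2, 8 of 10 were positive, and the medians were 0.15 for the 10 genes and -0.01 for all tested genes. With edgeR's quasi-likelihood test and Benjamini-Hochberg adjustment, 0 of 10 passed an adjusted p under 0.05, against 0.0175% of all tested genes. At an unadjusted p under 0.05 there was 1 of 10, Aldh1l1, against 13.9% of tested genes. That count was 0 of 10 when SAH + PBS replicate 2 was left out (15.6% of tested genes) and 5 of 10 when SAH + PBS replicate 3 was left out (Slc1a3, Gjb6, Aldoc, Slc4a4 and Aldh1l1, against 24.2%). DESeq2 also called 0 of 10 at an adjusted p under 0.05, where it called 4.28% of the genes it adjusted. At an unadjusted p under 0.05 from DESeq2 there was 1 of 10, but the share of all genes at that limit was not counted, so the count has no comparison. The groups overlapped in CPM (counts scaled to library size with TMM factors) for all 10 genes, while 27.2% of tested genes showed no overlap in either direction. In bulk tissue, fewer astrocytes and less RNA per astrocyte cannot be told apart.

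The libraries were close in depth, from 62762808 to 66761380 counts, but the SAH + PBS rats varied more. SAH + PBS replicate 2 had 21.5% of tested genes over 2-fold off the average of the remaining pair in its group, where the other 5 libraries had 6.04% to 12.8%. The labels give no batch.

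**Figure D1:**
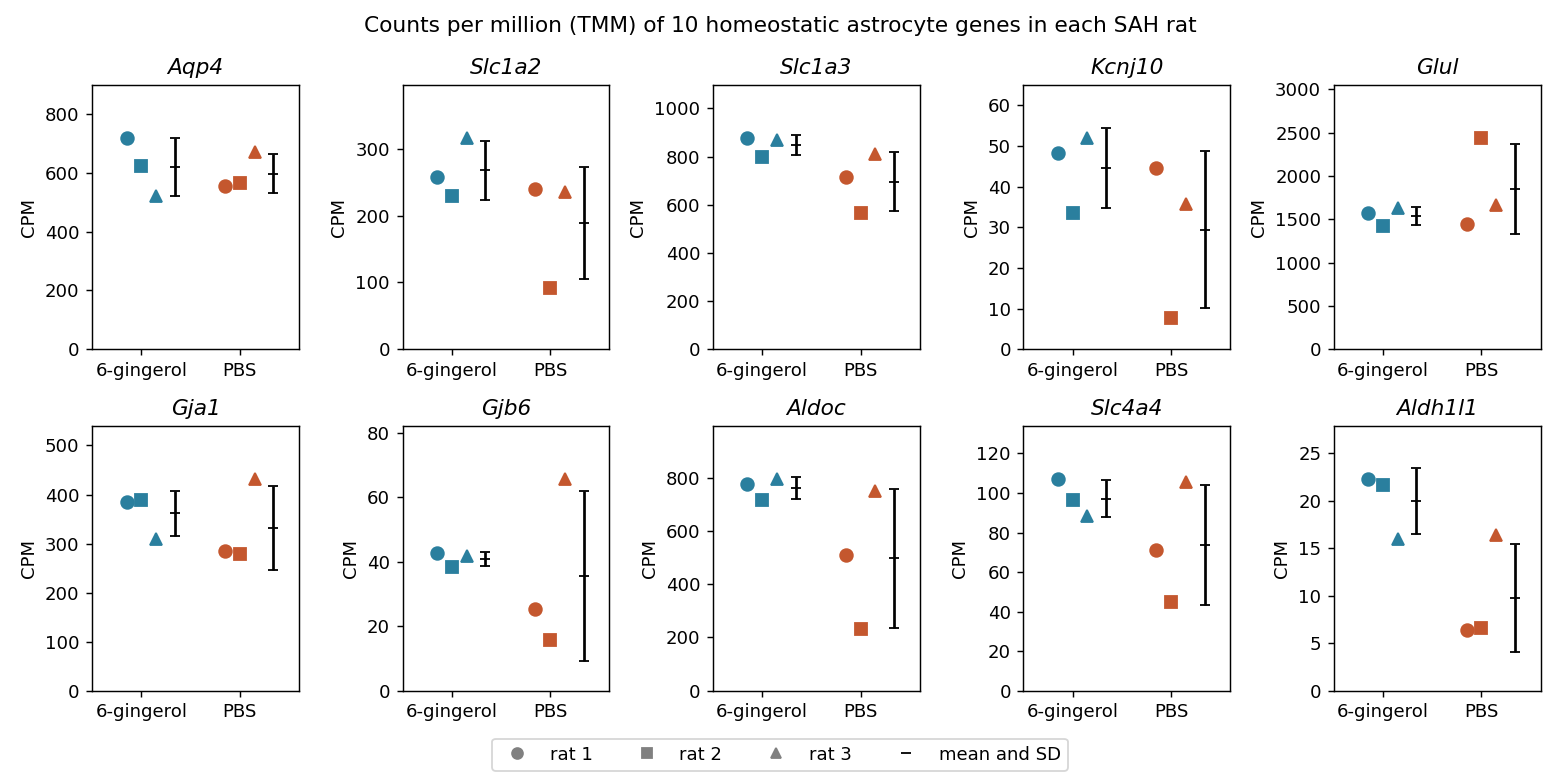
Each panel plots the CPM (counts scaled to library size with TMM factors) of 1 gene, with 1 point per rat (circle, square and triangle for replicates 1, 2 and 3) and the mean and SD of each group of 3 in black. SAH + PBS replicate 2 is the lowest of the 6 rats for 7 of the 10 genes and the highest for Glul, while replicate 3 reaches at least the lowest SAH + 6-gingerol rat in every panel. The shares of all tested genes with these orders were not counted.

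Per unit of length, the 10 genes ranged from among the most abundant transcripts of this tissue to a moderate level. FPKM values, which divide counts by gene length and depth, were highest for Glul at 595 ± 37.9 in the SAH + 6-gingerol rats and 781 ± 241 in the SAH + PBS rats (SD, n = 3 each). Aldoc came next with 435 ± 21.2 against 305 ± 153 FPKM, then Slc1a2 with 291 ± 46.0 against 221 ± 94.7 FPKM and Slc1a3 with 204 ± 9.34 against 181 ± 27.3 FPKM. Aqp4 (91.5 to 127 against 106 to 126 FPKM) and Gja1 (111 ± 14.4 against 110 ± 25.7 FPKM) did not differ beyond their spread in either group. These 6 genes each exceeded at least 96.2% of tested genes in mean FPKM. Their order rests on the length used per gene, and whether that length covers the whole transcript was not checked. In CPM Slc1a2, at a mean of 268 with 6-gingerol and 189 with PBS, was below Slc1a3, Aqp4 and Gja1. Kcnj10 (30.1 ± 6.46 against 21.4 ± 13.8 FPKM), Gjb6 (21.7 ± 1.07 against 20.3 ± 14.6 FPKM) and Slc4a4 (20.2 ± 2.02 against 16.5 ± 6.36 FPKM) lay close together, with Gjb6 and Slc4a4 overlapping in both groups and Kcnj10 overlapping both in the SAH + PBS rats. Aldh1l1 was the lowest of the 10 in every rat, with 6.38 ± 1.14 against 3.35 ± 1.88 FPKM, and exceeded 39.6% of tested genes. In the SAH + 6-gingerol rats the first 4 genes did not overlap with one another. In the SAH + PBS rats Aldoc, Slc1a2 and Slc1a3 overlapped, and in replicate 2 Slc1a3, at 152 FPKM, was above both Aldoc and Slc1a2.

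The pair of glutamate transporters was not called. Slc1a3 (GLAST; minus strand of chromosome 2 of Rnor_6.0, 57860834 to 57935363) had 878, 800 and 867 CPM with 6-gingerol and 713, 564 and 811 CPM with PBS. Only SAH + PBS replicate 3 reached into the SAH + 6-gingerol range. The log2 fold change was 0.29 (standard error 0.16, 95% interval -0.09 to 0.67, adjusted p = 0.414 from edgeR), and 0.16 without SAH + PBS replicate 2. Slc1a2 (GLT-1; plus strand of chromosome 3, 92640752 to 92665644) had 258, 230 and 316 CPM with 6-gingerol and 239, 91.9 and 235 CPM with PBS. Apart from SAH + PBS replicate 2, all rats lay between 230 and 316 CPM. Its log2 fold change of 0.50 (95% interval -0.37 to 1.38) became 0.18 (95% interval -0.16 to 0.51) without that rat. The ratio of Slc1a2 to Slc1a3 FPKM within a rat, which does not move with library scaling, was 1.42 ± 0.193 with 6-gingerol and 1.19 ± 0.404 with PBS (SD, n = 3 each), with SAH + PBS replicate 2 the lowest at 0.735. The level of this ratio, unlike its log2 difference between the groups, rests on the length used per gene. In CPM Slc1a2 was below Slc1a3 in every rat. The log2 difference of the ratio was 0.32, and 0.0057 without that rat. These ratios overlapped between the groups (2-sided exact permutation test, p = 0.5, adjusted p = 0.7 over 7 pairs, where 3 rats against 3 allow no p under 0.1).

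Glul, glutamine synthetase (plus strand of chromosome 13, 71331052 to 71340229), was the gene with the opposite sign. It had 1570, 1424 and 1631 CPM with 6-gingerol and 1452, 2442 and 1672 CPM with PBS. A single rat, SAH + PBS replicate 2, lay far above the other 5, which spanned 1424 to 1672 CPM. Its log2 fold change was -0.27 (95% interval -0.78 to 0.25, adjusted p = 0.531 from edgeR) and -0.02 (95% interval -0.25 to 0.21) without that rat.

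Kcnj10 and Aldoc had the lowest log2 levels of the 10 in SAH + PBS replicate 2 relative to the SAH + 6-gingerol mean, -2.49 and -1.72, followed by Aldh1l1 at -1.59 and Slc1a2 at -1.53. Kcnj10 (Kir4.1; plus strand of chromosome 13, 90723092 to 90752581) had 48.4, 33.6 and 52.0 CPM with 6-gingerol and 44.6, 7.81 and 35.8 CPM with PBS. Both other SAH + PBS rats lay inside the SAH + 6-gingerol range, while replicate 2 had 0.194 times their mean. The log2 fold change of 0.60 (standard error 0.58, adjusted p = 0.601 from edgeR) was 0.15 (95% interval -0.35 to 0.65) without that rat. Aldoc (aldolase C; plus strand of chromosome 10, 65586504 to 65590126) had 778, 717 and 796 CPM with 6-gingerol and 512, 231 and 752 CPM with PBS. For Aldoc replicate 1 was also below the SAH + 6-gingerol range, and replicate 3 inside it. Its log2 fold change was 0.62 (95% interval -0.33 to 1.56, adjusted p = 0.451 from edgeR) and 0.27 (95% interval -0.12 to 0.67) without replicate 2. Aldoa, an aldolase of many tissues, ran from 1498 to 1668 CPM with 6-gingerol and from 1365 to 1456 CPM with PBS, without overlap (log2 fold change 0.16, adjusted p = 0.491 from edgeR). The FPKM ratio of Aldoc to Aldoa was 0.496, 0.449 and 0.456 with 6-gingerol and 0.355, 0.162 and 0.494 with PBS (2-sided exact permutation p = 0.3, adjusted p = 0.7), a log2 difference of 0.61 that was 0.16 without replicate 2.

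**Figure D2:**
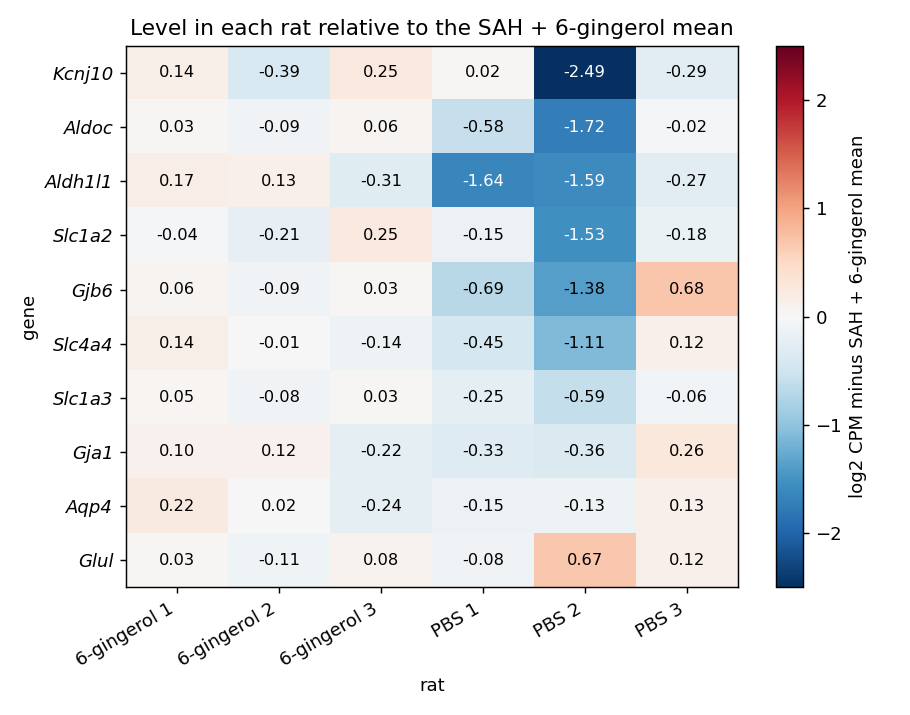
Each cell gives the log2 CPM of 1 gene (rows) in 1 rat (columns) minus the mean of the 3 SAH + 6-gingerol rats, with blue below and red above that mean, and genes are ordered by SAH + PBS replicate 2. That rat runs from -2.49 for Kcnj10 to 0.67 for Glul, whereas the SAH + 6-gingerol rats stay between -0.39 and 0.25.

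The promoters of Slc1a2, Kcnj10 and Aldoc, 3 of the 4 genes lowest in SAH + PBS replicate 2 by that measure, and of Glul, which was highest there, are shown for comparison. Aldh1l1, the other of the 4, was as low in replicate 1 and is not shown. Sequences are from RefSeq for the assembly GRCr8, a later build than that of the counts, and each runs 5′ to 3′ on the strand of the gene from 250 bases before to 50 bases after an annotated start. Capitals mark matches to GGGCGG (GC box) or TTGGCA (bound by nuclear factor I) on either strand.
Slc1a2 (chr3:109459859-109460158, plus strand): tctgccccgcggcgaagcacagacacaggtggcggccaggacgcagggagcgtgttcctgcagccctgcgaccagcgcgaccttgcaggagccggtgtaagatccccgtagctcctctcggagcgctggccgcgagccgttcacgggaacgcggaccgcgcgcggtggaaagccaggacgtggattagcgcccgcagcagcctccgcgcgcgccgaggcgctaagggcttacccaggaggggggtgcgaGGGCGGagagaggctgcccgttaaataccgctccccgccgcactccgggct
Kcnj10 (chr13:87334260-87334559, plus strand): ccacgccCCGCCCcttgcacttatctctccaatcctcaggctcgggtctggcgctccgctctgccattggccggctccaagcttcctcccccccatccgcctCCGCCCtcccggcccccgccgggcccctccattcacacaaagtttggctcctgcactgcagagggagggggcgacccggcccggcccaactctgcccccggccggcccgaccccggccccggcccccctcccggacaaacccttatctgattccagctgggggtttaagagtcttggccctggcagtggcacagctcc
Aldoc (chr10:63715294-63715593, plus strand): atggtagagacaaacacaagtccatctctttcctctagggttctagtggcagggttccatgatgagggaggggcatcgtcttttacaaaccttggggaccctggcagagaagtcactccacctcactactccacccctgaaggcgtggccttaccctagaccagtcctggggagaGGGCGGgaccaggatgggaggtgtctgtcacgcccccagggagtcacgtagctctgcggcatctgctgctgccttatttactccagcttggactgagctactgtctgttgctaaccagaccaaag
Glul (chr13:68575816-68576115, plus strand): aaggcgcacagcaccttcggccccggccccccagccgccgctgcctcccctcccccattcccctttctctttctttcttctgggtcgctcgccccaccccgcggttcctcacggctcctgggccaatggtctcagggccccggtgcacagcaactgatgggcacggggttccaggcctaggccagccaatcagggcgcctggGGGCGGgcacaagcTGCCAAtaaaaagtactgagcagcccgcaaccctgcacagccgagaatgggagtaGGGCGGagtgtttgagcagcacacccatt
Slc1a2 and Glul each have a further annotated start that is not shown. All 10 genes matched in the promoter table, with 16 windows. A GC box was found for 7 of 10, against 36.0% of all genes in the table, and a TTGGCA for 3 of 10 (Slc1a3, Glul and Gjb6), against 14.7%. Neither AACAAT, bound by SOX factors, nor TTCNNNGAA, bound by STAT factors, was found for any of the 10, against 12.6% and 9.39% of all genes. Aldh1l1 is among the 7 with a GC box, but GRCr8 places it on the plus strand and the count table on the minus strand, so its window may not belong to the counted model. For Slc1a2 and Glul the annotated starts in GRCr8 lie further apart than the counted model is long. The window shown for each may therefore not belong to the counted model either. The motifs were searched on both strands, with overlap allowed. A gene counted when any of its windows matched, and the number of windows per gene was not matched to that of all genes. By window, a GC box was found in 9 of 16, and the share over all windows of the table was not counted. All 4 windows shown hold a GC box, those of the genes low in replicate 2 and that of Glul. The Slc1a2 window not shown holds no GC box, and the Glul window not shown holds 1.

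The connexins spread widely within the SAH + PBS group. Gjb6 (connexin 30; minus strand of chromosome 15, 37400889 to 37410848) had 42.6, 38.5 and 41.6 CPM with 6-gingerol, but 25.3, 15.7 and 65.6 CPM with PBS. The SAH + PBS rats lay on both sides of the SAH + 6-gingerol range. The log2 fold change was 0.20 (standard error 0.49, 95% interval -0.98 to 1.39, adjusted p = 0.844 from edgeR) and turned to -0.15 without SAH + PBS replicate 2. Gja1 (connexin 43; plus strand of chromosome 20, 37876650 to 37889089) had 385, 390 and 309 CPM with 6-gingerol and 286, 280 and 431 CPM with PBS. Its log2 fold change was 0.12 (95% interval -0.37 to 0.61, adjusted p = 0.770 from edgeR) and 0.012 without replicate 2, and in both connexins replicate 3 was the highest of the 6 rats. The FPKM ratio of Gja1 to Gjb6 was 5.22, 5.84 and 4.28 with 6-gingerol and 6.50, 10.3 and 3.79 with PBS (2-sided exact permutation p = 0.6, adjusted p = 0.7). Its log2 difference of -0.32 turned to 0.032 without replicate 2.

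Aqp4 had the narrowest SAH + PBS spread of the 10 on the log2 scale. The water channel gene (minus strand of chromosome 18, 6765945 to 6782996) had 718, 621 and 520 CPM with 6-gingerol and 555, 564 and 672 CPM with PBS. All SAH + PBS rats lay inside the SAH + 6-gingerol range. The log2 fold change was 0.05 (standard error 0.16, 95% interval -0.33 to 0.44, adjusted p = 0.867 from edgeR), which was 0.016 without SAH + PBS replicate 2, and its sign turned to -0.062 when libraries were scaled by their totals.

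Slc4a4 (NBCe1; minus strand of chromosome 14, 20479323 to 20920286) had 107, 96.3 and 88.2 CPM with 6-gingerol and 71.0, 45.0 and 105 CPM with PBS. SAH + PBS replicates 1 and 2 were below the SAH + 6-gingerol range and replicate 3 inside it. Its log2 fold change was 0.40 (95% interval -0.31 to 1.11, adjusted p = 0.502 from edgeR) and 0.14 without replicate 2.

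Aldh1l1, the folate enzyme (minus strand of chromosome 4, 123516788 to 123557501), had the largest difference of the 10. It had 22.3, 21.7 and 16.0 CPM with 6-gingerol and 6.34, 6.56 and 16.4 CPM with PBS. SAH + PBS replicates 1 and 2 were both well below, but replicate 3 was above SAH + 6-gingerol replicate 3. The log2 fold change was 1.03 (standard error 0.40, 95% interval 0.06 to 2.01). It had an unadjusted p of 0.0403 and an adjusted p of 0.354 from edgeR, and genes that were higher at an unadjusted p under 0.05 and over 2-fold made up 0.731% of tested genes, and those lower by the same rule 4.69%. Without SAH + PBS replicate 2 the log2 fold change was 0.82 (unadjusted p = 0.0834 and adjusted p = 0.400 from edgeR), and without replicate 3 it was 1.63 (adjusted p = 0.0864). Among the 10470 genes averaging 10 CPM or more, the profile over the 6 rats nearest to that of Aldh1l1 was that of Slc6a13, the GABA and taurine transporter GAT2, at a root mean square difference of 0.12 in centred log2 CPM. It had 17.6, 18.4 and 11.6 CPM with 6-gingerol and 6.06, 5.18 and 13.4 CPM with PBS. Next came a model named LOC103689983, annotated as a hypoxanthine-guanine phosphoribosyltransferase (0.20), and the neuronal microtubule protein Map2 (0.26).

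**Figure D3:**
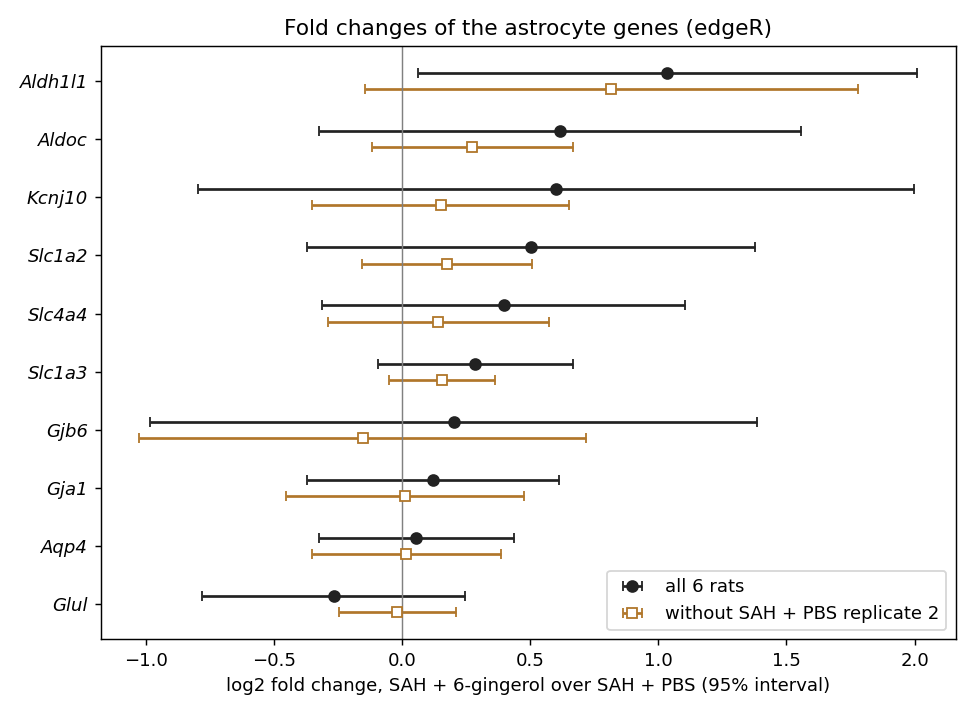
Points give the edgeR log2 fold change of each gene, SAH + 6-gingerol over SAH + PBS, with its 95% interval, for all 6 rats (filled circles) and without SAH + PBS replicate 2 (open squares). The interval of Aldh1l1 with all rats is the only one that does not hold 0, and without replicate 2 the points of the other 9 genes lie between -0.15 and 0.27.

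Across the 10 genes, the SAH + PBS rats differed from one another more than the SAH + 6-gingerol rats did. The SD of log2 CPM was larger in the SAH + PBS group for 9 of 10 genes, all but Aqp4, against 77.3% of tested genes. Its median over the 10 genes was 0.16 with 6-gingerol and 0.70 with PBS, against 0.14 and 0.34 over all tested genes. Leaving out SAH + PBS replicate 2 left 7 of 10 genes with the larger SD in SAH + PBS (52.3% of tested genes) and a median SD of 0.31. In that rat the 10 genes had a median of 0.544 times the average of replicates 1 and 3, where all tested genes had 0.990, and it was the lowest SAH + PBS rat for 7 of 10 genes, against 42.9% of tested genes. Relative to the SAH + 6-gingerol mean, the median of the 10 genes was -0.29 on the log2 scale in replicate 1, -1.24 in replicate 2 and 0.05 in replicate 3. Replicate 3 was within the range of the SAH + 6-gingerol rats by this median, which ran from -0.09 to 0.08.

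Markers of other cells also stood apart in that rat. In SAH + PBS replicate 2 the median relative to the other 2 SAH + PBS rats was 0.565 for 12 neuron markers and 0.572 for 9 oligodendrocyte markers, and 1.15 for 8 microglia markers, 1.87 for 5 measured endothelial markers and 2.15 for 7 measured markers of meningeal fibroblasts. The summed CPM of the neuron markers was 11102 to 11237 in the SAH + 6-gingerol rats, 8085 and 8946 in SAH + PBS replicates 1 and 3, and 4806 in replicate 2. All 12 neuron markers had a positive log2 fold change, with and without replicate 2, where 46.9% of tested genes were positive with all rats. Their median was 0.55 with all rats, above the 0.34 of the 10 homeostatic genes, and 0.35 without replicate 2. The markers of ependyma and choroid plexus summed to 21.3 to 25.9 CPM with 6-gingerol and to 1165, 42.2 and 355 CPM with PBS. The part of these cells in the astrocyte values was not tested.

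Genes that work beside the 10 were not called by edgeR either. Of 11 endfoot genes, 10 were positive, at a median log2 fold change of 0.21, and 5 had all SAH + 6-gingerol rats above all SAH + PBS rats (13.8% of tested genes), though 0 of 11 passed at an adjusted p under 0.05. Without SAH + PBS replicate 2 the median was 0.13, with 10 still positive. Those of smallest p were Dtna, encoding dystrobrevin (log2 fold change 0.45), Dmd, encoding dystrophin (0.55), and Sntb1, a syntrophin (0.43), with adjusted p from 0.359 to 0.436 in edgeR, and without that rat they were at 0.27, 0.27 and 0.20. Mlc1, a membrane protein of endfeet, was the most abundant, at 302 to 356 CPM with 6-gingerol and 241 to 335 CPM with PBS (log2 fold change 0.20, and 0.087 without replicate 2).
Of 11 genes of potassium and sodium handling 8 were positive, at a median of 0.29 with all rats and 0.12 once SAH + PBS replicate 2 was left out, and 0 passed in edgeR. Kcnk2, the potassium channel TREK-1, had 63.0, 52.8 and 65.3 CPM with 6-gingerol and 38.8, 27.9 and 38.8 CPM with PBS, without overlap (log2 fold change 0.78, adjusted p = 0.334 from edgeR and 0.00457 from DESeq2). Atp1b1, a pump subunit and the most abundant of the list, had 0.29, and 0.13 without that rat. Kcnj16, which encodes the Kir5.1 partner of Kir4.1, had a log2 fold change of 0.41, and 0.12 without that rat, and the FPKM ratio of Kcnj10 to Kcnj16 was 4.61 ± 2.07 with 6-gingerol and 3.62 ± 2.15 with PBS (SD, n = 3 each). The log2 difference of this ratio was 0.42 (2-sided exact permutation p = 0.5, adjusted p = 0.7), and 0.0099 without replicate 2.

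Glutamate cycling and fuel transport went both ways. Of 18 genes of the glutamate, glutamine, GABA and glycine cycle 15 were positive and 3 negative, with a median log2 fold change of 0.43 and 0 passing in edgeR, and without SAH + PBS replicate 2 the median was 0.23, with 14 positive and 4 negative. Slc38a3, the glutamine exporter of astrocytes, had 76.6, 64.9 and 72.0 CPM with 6-gingerol and 49.1, 29.2 and 53.0 CPM with PBS (log2 fold change 0.70, adjusted p = 0.347 from edgeR). The vesicular glutamate transporter of neurons, Slc17a7, had 0.74 (adjusted p = 0.347). Slc38a2, an amino acid transporter regulated by stress, had 154, 151 and 169 CPM against 288, 286 and 198 CPM (log2 fold change -0.71, adjusted p = 0.338 from edgeR and 0.0149 from DESeq2).
Of 11 genes of bicarbonate, lactate and glucose transport 6 were positive and 5 negative, with a median of 0.11. Without SAH + PBS replicate 2 the median turned to -0.18, with 4 positive and 7 negative. The glucose transporter Slc2a1 had 130, 117 and 129 CPM against 206, 365 and 160 CPM, a log2 fold change of -0.95 (adjusted p = 0.347 from edgeR) that was -0.54 without that rat. The bicarbonate transporters Slc4a2 and Slc4a7 had -0.86 and -0.44 (adjusted p = 0.343 and 0.347 from edgeR), and DESeq2 called both (adjusted p = 0.0386 and 0.0368), while Slc4a10, the most abundant of the list, had 0.29, which became -0.000704 without SAH + PBS replicate 2.
Of 13 aldolase, folate and serine enzymes 6 were positive and 7 negative, with and without SAH + PBS replicate 2, with a median of -0.01, and -0.05 without it. Aldh1l2, the mitochondrial relative of Aldh1l1, had a log2 fold change opposite in sign to it, with 0.715, 0.854 and 0.535 CPM with 6-gingerol and 2.56, 7.20 and 1.59 CPM with PBS (-2.43, adjusted p = 0.338 from edgeR and 0.00624 from DESeq2, and -1.56 without replicate 2). Shmt2, a serine enzyme of mitochondria, had -1.01 and Shmt1, its cytosolic counterpart, -1.05 (adjusted p = 0.343 and 0.347 from edgeR). Of 9 other connexin and junction genes 5 were positive, with a median of 0.29, and 8 without SAH + PBS replicate 2, with a median of 0.23. Tjp1, a scaffold of tight junctions, was the most abundant and had the smallest p (-0.26, adjusted p = 0.388 from edgeR, and -0.13 without that rat), followed by the connexins Gjc3 (0.89, and 0.52 without that rat) and Gjb1 (1.00), which oligodendrocytes express.

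Other genes of resting astrocytes lay on both sides of 0. Of 31 tested (Gpc5 was not), 23 were positive and 8 negative, and the median log2 fold change was 0.25 with all rats and 0.03 once SAH + PBS replicate 2 was left out, with 18 positive and 13 negative. With all rats, edgeR called 0 of the 31 at an adjusted p under 0.05, with 2 higher and 5 lower at an unadjusted p under 0.05 (5.22% and 8.71% of tested genes). DESeq2 called 1 higher and 2 lower, and 4.28% of all genes it adjusted. S1pr1, a sphingosine-1-phosphate receptor, had 155, 138 and 143 CPM against 91.0, 69.4 and 113 CPM (0.67, adjusted p = 0.343 from edgeR and 0.0437 from DESeq2). Sparcl1, a secreted matrix protein, was the most abundant, at 2677 to 2895 CPM with 6-gingerol and 1620 to 2418 CPM with PBS (log2 fold change 0.43, and 0.29 without replicate 2). Clu, the secreted chaperone clusterin, had 741, 704 and 685 CPM against 1061, 1954 and 1004 CPM (-0.92, adjusted p = 0.347 from edgeR), and it passed without SAH + PBS replicate 2 (-0.54, adjusted p = 0.0458). Pla2g7, a phospholipase, had -0.94 (adjusted p = 0.343 from edgeR and 0.0339 from DESeq2).

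**Figure D4:**
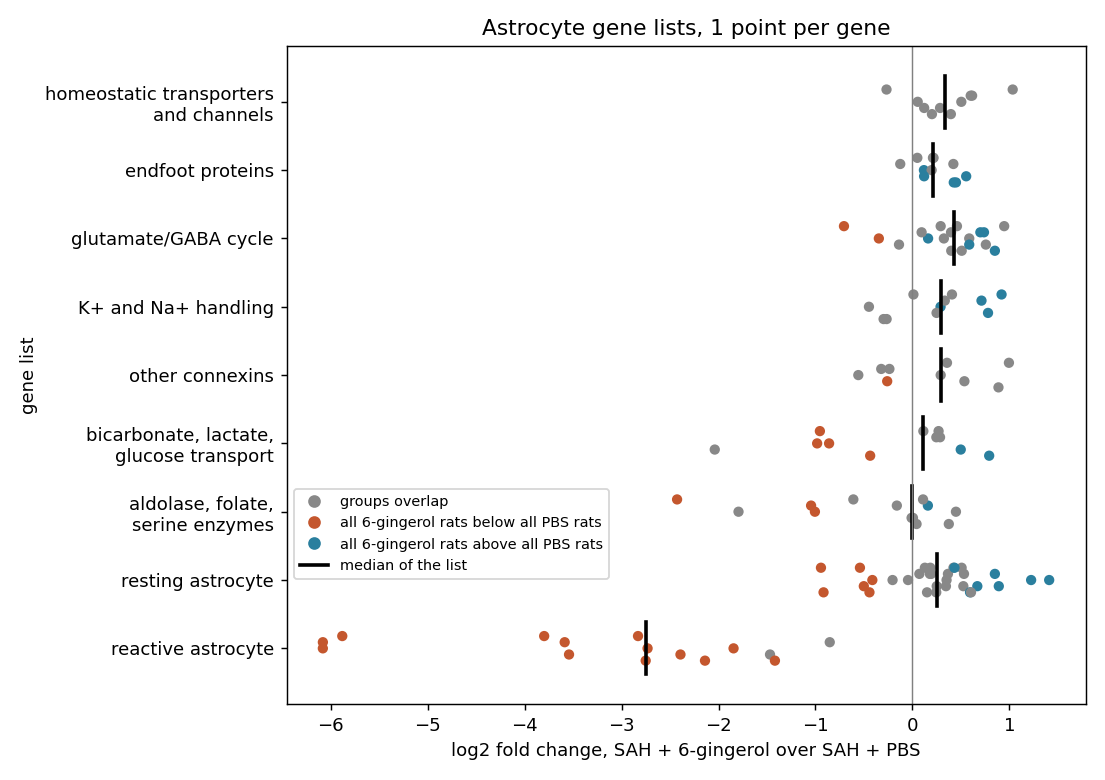
Each point gives the edgeR log2 fold change of 1 gene, SAH + 6-gingerol over SAH + PBS, by gene list, colored by whether the groups overlap in CPM, and the black bar gives the median of the list. The medians of the homeostatic lists lie between -0.01 and 0.43, and that of the reactive list at -2.75.

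Reactive astrocyte genes, which injury is known to induce, all had a negative log2 fold change. Of 15 tested (Serpina3n was not), 15 were lower on average with 6-gingerol, at a median log2 fold change of -2.75, and 13 had all SAH + 6-gingerol rats below all SAH + PBS rats (13.4% of tested genes). None passed with all rats in edgeR, where adjusted p ran from 0.289 to 0.580, and 13 of 15 were lower at an unadjusted p under 0.05 (8.71% of tested genes). Without SAH + PBS replicate 2 the median was -1.64, 13 of 15 stayed negative and 5 of 15 passed (0.524% of tested genes), including Gfap and Hspb1. In that fit 0 of the 10 homeostatic genes passed. With all rats DESeq2 called 10 of the 12 to which it gave an adjusted p (4.28% of all genes it adjusted) and gave none to the other 3. Expressed within each rat, the FPKM ratio of Gfap, the astrocyte filament, to Aldh1l1 was 19.9, 16.7 and 16.1 with 6-gingerol and 285, 552 and 106 with PBS. The groups did not overlap, with a log2 difference of -3.87 (2-sided exact permutation p = 0.1, the smallest possible, adjusted p = 0.35 over 7 pairs) and -3.31 without SAH + PBS replicate 2. Gfap alone already showed no overlap, and Aldh1l1 had the largest positive log2 fold change of the 10. The ratio is therefore no separate result. In SAH + PBS replicate 3, where the 10 homeostatic genes were at the level of the SAH + 6-gingerol rats by their median, Gfap was at 2106 CPM, against 314 to 539 CPM with 6-gingerol. That rat was above all SAH + 6-gingerol rats for the 13 genes without overlap, but by unlike margins. Hspb1 was at 61.6 CPM against 4.63 to 5.23 CPM, and S1pr3 at 14.6 CPM against 10.4 to 14.4 CPM. Tnc, at 18.1 CPM against 17.3 to 25.2 CPM, and Thbs1 lay inside the SAH + 6-gingerol range.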

How the data were processed

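Bulk RNA of the basal temporal lobe was sequenced from 3 SAH + 6-gingerol and 3 SAH + PBS rats, 1 library each. Treatments and replicate numbers came from the sample titles, which open with the column names (Control for SAH + 6-gingerol, SAH for SAH + PBS). The authors deposited raw counts and FPKM per Ensembl gene. The deposited FPKM follow from the counts with 1 length per gene (within 0.00961% over 13995 genes), so they are no separate measurement. The submitters' notes list, with no roles, limma 3.32.10, StringTie 1.3.3b, HISAT2 2.1.0 and the build Rnor_6.0. The study's methods name STAR and DESeq2. Which program counted and whether it used strand is not given in the sources used here, so antisense reads could not be told apart. No other gene model in the table overlaps the 10.

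Counts were compared in edgeR 4.0.16 (R 4.3.3) with filterByExpr (minimum count 10, total 15), TMM factors and the quasi-likelihood functions glmQLFit and glmQLFTest, with no block. P-values were adjusted by Benjamini-Hochberg across the 17096 genes. A standard error is the size of the log2 fold change divided by the root of F, and 95% intervals use the test's degrees of freedom. Ratios are of FPKM within a rat, with p-values adjusted over 7 pairs, of which 2 are not reported here, like some genes that the naming rule selects. The 2-fold rule at an unadjusted p under 0.05 follows 1 of the limits in the study's methods, which do not say whether that p was adjusted. Those methods also name a limit on the adjusted p-value and false discovery rate. Statistics were tested on simulated data. Alternatives used DESeq2 1.42.0 and limma 3.58.1, other scalings and filters, log2(FPKM + 1) and log2(FPKM + 0.1) with FPKM of at least 0.5 in 3 libraries or no filter, a replicate block, and each rat left out. The 10 genes and the gene lists were chosen with earlier results of these data known. Named genes are the 10, the 3 of smallest p and the most abundant of each astrocyte list, the ratio partners and the 3 profiles nearest to Aldh1l1. Some further reactive and meningeal genes are named outside that rule. The motifs were chosen after the values were seen. No replicate pair agreed within counting noise.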

Additional observations from a re-analysis of the deposited data

How the results depend on the processing

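Over 17 alternatives, no setting called any of the 10 genes at an adjusted p under 0.05 (smallest 0.0785, for Aldh1l1). Slc1a2, Slc1a3, Kcnj10, Glul, Gja1, Aldoc, Slc4a4 and Aldh1l1 kept their sign in all 17. Scaling by library totals moved the median of all genes from -0.03 to -0.15, log2(FPKM + 1) to -0.10 and log2(FPKM + 0.1) to -0.12, and library totals moved the median of the 10 genes to 0.23. The median of the 10 ranged from 0.15 (without SAH + PBS replicate 2) to 0.72 (without SAH + PBS replicate 3) when a rat was left out. The number at an unadjusted p under 0.05 and over 2-fold was 1 with all rats, 0 with library totals and on log2(FPKM + 1) with and without a filter, and 0 to 2 with a rat left out. The cause was not tested. Aqp4 turned to -0.062 with library totals, to -0.070 on log2(FPKM + 1), with or without a filter, and to -0.071 on log2(FPKM + 0.1), and ran from -0.061 to 0.17 with a rat left out. Gjb6 ran from -0.15 to 0.99, Slc4a10 from -0.000704 to 0.55 and the log2 ratio difference of Gja1 to Gjb6 from -0.69 to 0.032. The labels do not say whether rats of the same replicate number shared any step. The deviations of same-numbered rats from their group means correlated at -0.05, 0.01 and 0.02, which with 3 rats a group cannot settle it. With the replicate number as a block the median of the 10 was 0.47 and 0 of the 10 passed, as 0 of all genes did (3 without the block). Not every rat correlated best with the rat of its own number. At these depths each of the 10 had at least 431 counts in every library, and the intervals rest on 3 rats a group.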

Other observations

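Markers of meningeal fibroblasts did not move as 1 group. Slc22a6, an organic anion transporter of the meninges, had 22.6, 21.8 and 19.2 CPM with 6-gingerol and 7.80, 3.15 and 13.7 CPM with PBS, an order of the SAH + PBS rats unlike that of Col1a1, a collagen chain, at 37.9, 125 and 80.8 CPM. The log2 fold changes were 1.37 for Slc22a6 (adjusted p = 0.348 from edgeR, and 0.98 without SAH + PBS replicate 2) and 0.08 for Col1a1 (adjusted p = 0.928 from edgeR, and 0.53 without that rat). Of the 7 tested markers 5 were positive and 2 negative, and edgeR called 0. The negative ones were Slc6a20 (-2.10, and -1.14 without that rat) and Dcn (-1.41, and -0.90), both without overlap between the groups. DESeq2 called Slc6a20, Dcn and Igf2, the last at 0.70 (adjusted p = 0.0110, 0.0184 and 0.0421), and 4.28% of all genes it adjusted. Slc6a13, picked because its profile was the nearest to that of Aldh1l1, was highest in SAH + PBS replicate 3 of the SAH + PBS rats. So were Slc22a6 and 7 of the 10 homeostatic genes, Aldh1l1 among them. The share of all tested genes with that order was not counted. The summed CPM of the 7 tested meningeal markers was 405 to 584 with 6-gingerol and 309, 971 and 549 in SAH + PBS replicates 1, 2 and 3.

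Oligodendrocyte markers were all positive, 9 of 9, with a median log2 fold change of 0.55, and 0 passed in edgeR or DESeq2 at an adjusted p under 0.05, where 2 of 9 were higher at an unadjusted p under 0.05 in edgeR (5.22% of tested genes). Without SAH + PBS replicate 2, 8 of 9 were positive, with a median of 0.31. Their summed CPM ranged from 3754 to 7153 among the SAH + 6-gingerol rats alone and from 2746 to 5386 with PBS.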
